A study of Mus musculus with 8 samples.

Results

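Marker genes of the cerebellar Purkinje cell were compared between the mouse strains Inbred Long Sleep (ILS) and Inbred Short Sleep (ISS). The members were every probe set of the Affymetrix 430A and 430B arrays annotated to Pcp2, Pcp4, Calb1, Car8, Itpr1, Ppp1r17, Pvalb or Icmt and to no other gene. That rule found 14 of 45137 probe sets, 11 on 430A and 3 on 430B, for 7 of the 8 genes, among 18193 genes with a probe set of their own. No probe set was found for Itpr1, which is not analysed here.

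Cerebellar RNA came from 4 alcohol-naive males that had free access to food and water, ILS mice 48 and 51 and ISS mice 55 and 56. The labels name no age, allele or agent. ILS and ISS mice stem from breeding for a long or a short time without the righting reflex under ethanol, and the arrays compared their baseline expression. Each mouse was hybridised once to 430A and once to 430B, so the chips repeat the same animals and add no replicates, and 2 mice a strain limit the precision.

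Purkinje cells are the inhibitory output neurons of the cerebellar cortex and carry large amounts of calcium-handling proteins. On glutamate release from granule cell axons, phospholipase C in their dendrites makes inositol trisphosphate, and the trisphosphate receptor encoded by Itpr1 releases calcium from internal stores. Calb1 and Pvalb buffer that calcium, Pcp4 binds calmodulin, and Car8 lowers the affinity of the Itpr1 receptor for its ligand. Ppp1r17 is phosphorylated by the cyclic GMP-dependent kinase and then inhibits protein phosphatases, Pcp2 modulates Gi and Go proteins, and Icmt methylates prenylated proteins such as small GTPases. In whole tissue, fewer Purkinje cells and less RNA per cell cannot be told apart.

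Pcp2 and Pcp4 are shown by the sequence before an annotated start because both are known targets of Rora, the orphan nuclear receptor lost in ataxic staggerer mice. The 250 bases upstream were read from RefSeq (GRCm38.p6) for the 4 members it held, Pcp2, Pcp4, Pvalb and Icmt. Capitals mark the ROR core AGGTCA or its complement TGACCT, searched on both strands. The bases beside this core were not part of the search, so a match is not specific to Rora. The ROR core was 1 of 4 motifs searched. The others were the TATA box TATAAA, the GC box GGGCGG and the EBF core CCCNNGGG, absent from both windows shown. They matched in the third Pcp2 window, the Icmt window and the second Pvalb window, in that order. The first window lies at chr8:3625548-3625797 on the minus strand, the farthest upstream of 4 starts of Pcp2, and the other at chr16:96467356-96467605 on the plus strand.
Pcp2: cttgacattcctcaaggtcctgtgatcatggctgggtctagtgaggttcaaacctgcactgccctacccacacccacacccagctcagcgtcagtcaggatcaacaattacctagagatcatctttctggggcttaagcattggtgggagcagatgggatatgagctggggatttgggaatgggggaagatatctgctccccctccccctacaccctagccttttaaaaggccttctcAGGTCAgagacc
Pcp4: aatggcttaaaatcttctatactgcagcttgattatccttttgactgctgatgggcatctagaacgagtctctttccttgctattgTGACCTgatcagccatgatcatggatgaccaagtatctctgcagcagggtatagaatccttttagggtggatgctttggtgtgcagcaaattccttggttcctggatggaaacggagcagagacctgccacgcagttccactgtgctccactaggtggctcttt
The ROR core was present in 14.0% of all 32851 promoter windows of this length. It occurred in 3 of the 4 Pcp2 windows, of which the first 2 overlap and share it, and in the Pcp4 window. The ROR letters were not found in the Icmt window or in the 2 windows of Pvalb. The Icmt window appears to hold the start of the coding sequence, so it was not purely upstream sequence. A match describes these letters and shows no binding. At its brightest tested probe set on 430A, Rora itself had signals of 1639 and 2322 in ILS against 3073 and 2952 in ISS. The log2 difference was -0.63 ± 0.16 (SE, limma adjusted p = 0.0816). The strains did not overlap there, but the difference did not pass. It was called by limma without ILS mouse 51 (-0.88, adjusted p = 0.0230) and with equal array medians (-0.78, adjusted p = 0.0134), and was -0.37 without ILS mouse 48. At its brightest tested probe set on 430B, with signals of 3674 and 2851 in ILS and 3225 and 5227 in ISS, the strains overlapped.

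The markers were among the brightest features of the arrays. The brightest probe sets of Pvalb, Pcp4, Pcp2 and Calb1 lay at percentiles 99.5, 99.4, 99.3 and 99.1 of mean signal on 430A, and that of Car8 at 98.3. Icmt stood at percentile 93.0 and Ppp1r17 at 91.3. The markers of granule cells, the neurons that outnumber all others in the cerebellum, reached the chip's median signal for 10 of the 11 genes on 430A, against 3 of 9 markers of brainstem, midbrain, cerebellar nuclei and forebrain neurons. Detection calls were not used here.

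A probe set was tested where its mean log2 signal reached the median of its chip, and called at a limma adjusted p under 0.05 over all probe sets tested on the chip. Of the 11 member probe sets on 430A 10 were tested, and all 3 on 430B. The dim probe set of Pcp2 had signals of 157 and 126 in ILS and 93.5 and 182 in ISS, below the array median in every mouse, and was not tested. Of the 10 on 430A, 2 were called, both lower in ILS, where 1.33% of the 11313 probe sets tested were called lower and 1.61% higher. On 430B 1 of 3 was called, higher in ILS, where 0.195% of 11256 were called higher and 0.284% lower. The median log2 difference (ILS minus ISS) was -0.27 over the 10 on 430A and -0.01 over all tested. The median over all depended on brightness, at 0.11 with dim probe sets kept and -0.06 with a filter at the 75th percentile. The median of the 10 was -0.24 with quantile and -0.23 with cyclic loess normalization. The strains did not overlap at 5 of the 10 with ILS lower and at 1 with ILS higher. Over all probe sets tested on 430A these shares were 28.7% and 25.6%. On 430B ILS was higher without overlap at 2 of the 3 and lower at none, where the shares over all were 19.6% and 19.3%.

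**Figure D1:**
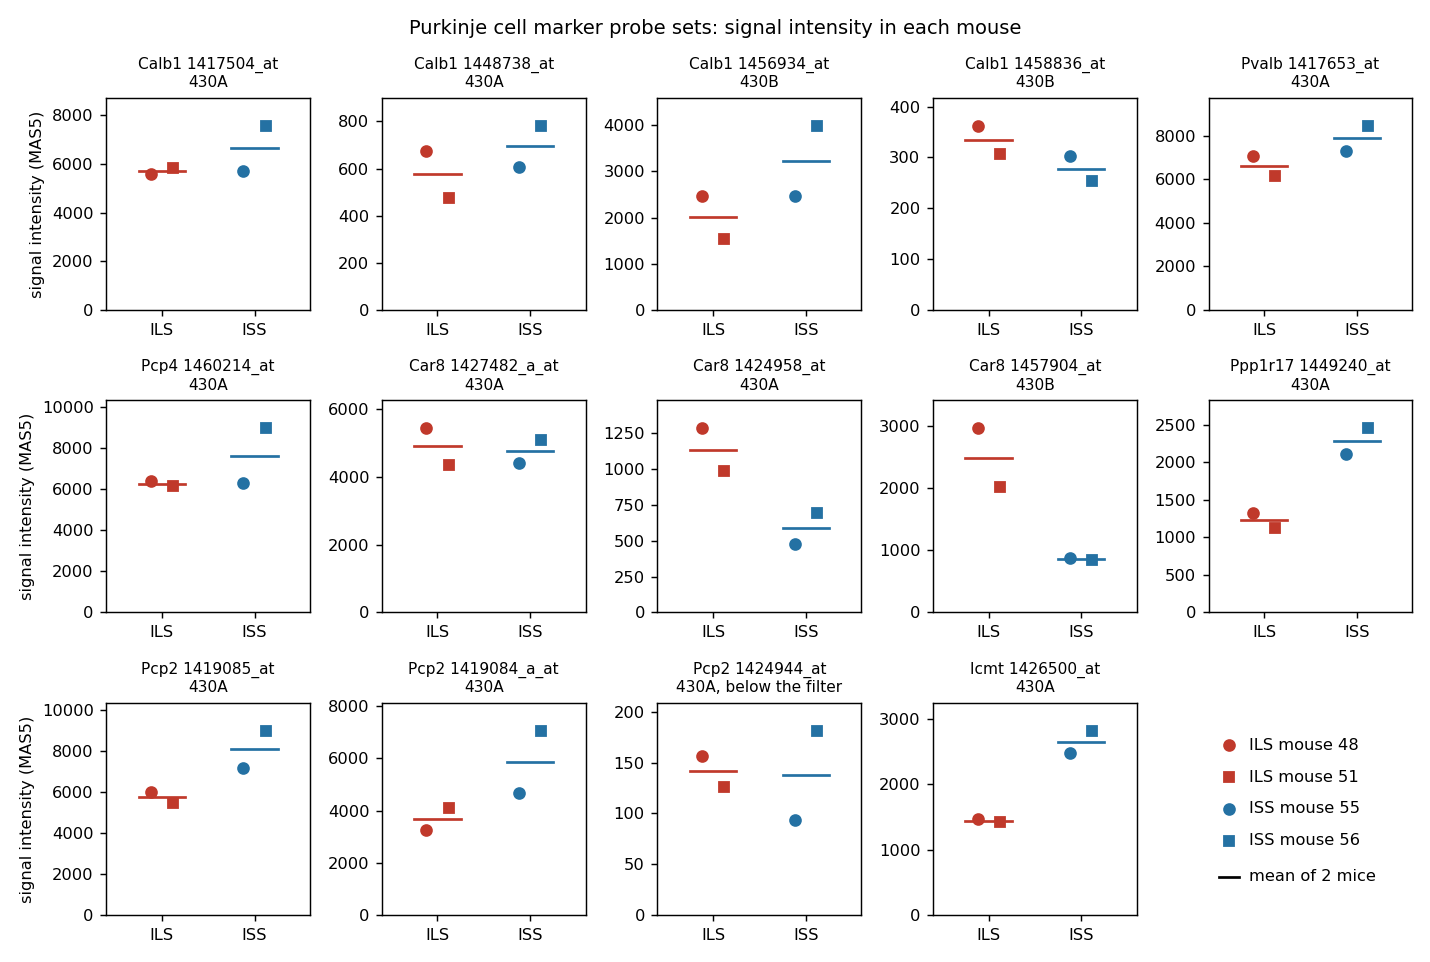
Signal intensity (MAS5, linear axis from 0) of the 14 member probe sets in each mouse, ILS left in red and ISS right in blue, with a bar at the mean of 2 mice. ILS lies below ISS without overlap at Icmt, Ppp1r17, Pvalb and the bright Pcp2 probe sets, and above it at Car8 1424958_at and 1457904_at and, narrowly, at the dim Calb1 1458836_at.

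Ppp1r17, the phosphatase inhibitor, was lower in ILS. Its probe set had signals of 1330 and 1120 in ILS mice 48 and 51, against 2111 and 2455 in ISS mice 55 and 56. Both ILS mice lay below both ISS mice, and the gap between the strains was wider than the gap between mice of either. Ppp1r17 fell 1.87-fold in ILS, with a log2 difference of -0.90 ± 0.14 (SE, limma adjusted p = 0.0225). Without ISS mouse 56 the difference was -0.79 and the call ended (adjusted p = 0.0552). It was called under the other alternatives run on 430A, with adjusted p from 0.00121 to 0.0452.

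Icmt, the methyltransferase, was lower in ILS as well. The ILS mice stood at 1466 and 1427 and the ISS mice at 2487 and 2826. The ILS values nearly coincided, at 1446 ± 27.6 against 2657 ± 239 in ISS (SD, n = 2). Icmt fell 1.83-fold in ILS, with a log2 difference of -0.87 ± 0.12 (SE, limma adjusted p = 0.0139). It was called under all 15 alternatives run on 430A, each mouse left out included, with adjusted p from 0.00104 to 0.0421. Its p ranked at 67 among 11313 probe sets and that of Ppp1r17 at 99. Icmt acts in many cell types besides the Purkinje cell.

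Pcp2, a protein nearly restricted to Purkinje cells in the cerebellum, was lower in ILS at both bright probe sets without passing the threshold. At 1419085_at the ILS mice had 5996 and 5488, against 7167 and 9007 in the ISS mice. At 1419084_a_at the ILS mice had 3254 and 4096, against 4680 and 7073 in the ISS mice. The strains did not overlap at either, but ISS mouse 56 stood well above ISS mouse 55. The log2 differences were -0.49 ± 0.12 (SE, limma adjusted p = 0.0715) and -0.66 ± 0.19 (adjusted p = 0.106). Without ISS mouse 55 both were called, at -0.65 and -0.95, and without ISS mouse 56 they were -0.32 and -0.36.

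Among the calcium buffers, Pvalb is shared by Purkinje cells and molecular layer interneurons. It had signals of 7056 and 6135 in ILS and 7292 and 8471 in ISS. These did not overlap, though ILS mouse 48 and ISS mouse 55 stood close together. The log2 difference was -0.26 (95% interval -0.51 to -0.0018, limma adjusted p = 0.226). With equal array medians it was called at -0.42.

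Calb1 was measured at 4 probe sets, and none was called. The brightest, 1417504_at on 430A, had 5586 and 5840 in ILS and 5725 and 7582 in ISS, so that ISS mouse 56 alone stood apart. The log2 difference was -0.21 (95% interval -0.51 to 0.10). It was -0.41 without ISS mouse 55 and -0.0034 without ISS mouse 56. The dimmer 1448738_at on 430A, at -0.28, also overlapped between strains, and was -0.53 without ILS mouse 48 and -0.032 without ILS mouse 51. On 430B, 1456934_at had 2468 and 1541 in ILS and 2468 and 3989 in ISS, a log2 difference of -0.69 (95% interval -1.28 to -0.09, limma adjusted p = 0.443). ISS mouse 56 was highest here as well, and the other ISS mouse was level with ILS mouse 48. Without ILS mouse 48 or without ISS mouse 55 the difference was -1.03, and without ISS mouse 56 it was -0.34. The dim 1458836_at ran the other way at 0.27 (95% interval -0.38 to 0.92), with 363 and 306 in ILS and 302 and 254 in ISS, where the nearest mice of the strains were almost level.

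Pcp4, the calmodulin-binding peptide, had signals of 6371 and 6125 in ILS and 6288 and 8960 in ISS. ISS mouse 55 fell between the ILS mice, and ISS mouse 56 was above all the others. The log2 difference was -0.26 (95% interval -0.61 to 0.08, limma adjusted p = 0.347). Without ISS mouse 55 it was called at -0.52, and without ISS mouse 56 it was -0.0095.

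Car8 gave different answers at its 3 probe sets. The protein is related to carbonic anhydrases but lacks their activity, and its loss causes ataxia in waddles mice. The brightest, 1427482_a_at on 430A, had 5449 and 4370 in ILS and 4428 and 5106 in ISS. The strains overlapped, with a log2 difference of 0.04 (95% interval -0.26 to 0.34) that turned to -0.12 with equal array medians. At 1424958_at on the same chip the ILS mice had 1286 and 985, against 476 and 695 in the ISS mice. That difference of 0.97 ± 0.21 (SE) lay just outside the threshold (limma adjusted p = 0.0514). It was called with equal array medians, a pseudocount, robust eBayes or either ILS mouse 51 or ISS mouse 56 left out.

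On 430B, 1457904_at of Car8 had 2970 and 2013 in ILS, against 869 and 845 in ISS. Both ILS mice exceeded the ISS mice by more than the gap between them. Car8 rose 2.85-fold in ILS at this probe set, with a log2 difference of 1.51 ± 0.20 (SE, limma adjusted p = 0.0137). Without ILS mouse 48 it was 1.23 and the call ended (adjusted p = 0.0807). The same difference came with the fluidics station as a block, since that mouse alone ran on station 1 on 430B. Of all probe sets tested there, 0.48% had a larger difference.

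Within each 430A array, the log2 ratio of 1424958_at to 1427482_a_at was -2.08 and -2.15 in ILS and -3.22 and -2.88 in ISS. The ratio was 0.93 higher in ILS, so the probe sets of Car8 changed unequally, whatever the scale of an array. Shifts at other genes came with ratios that varied more between mice of a strain. The ratio of the dim Calb1 probe set 1458836_at to 1456934_at on 430B was 0.95 higher in ILS. It was -2.77 and -2.33 in ILS and -3.03 and -3.98 in ISS, where the ISS mice stood far apart. The dim, untested probe set of Pcp2 shifted by 0.60 against 1419085_at on 430A. Its ratios were -5.25 and -5.44 in ILS and -6.26 and -5.63 in ISS. Shifts nearer 0 were -0.08 between the Calb1 probe sets of 430A and -0.17 between the bright ones of Pcp2. Which stretch of the transcript each probe set reads was not analysed here, so the part of transcript forms or of strain sequence variants under the probes was not tested.

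**Figure D2:**
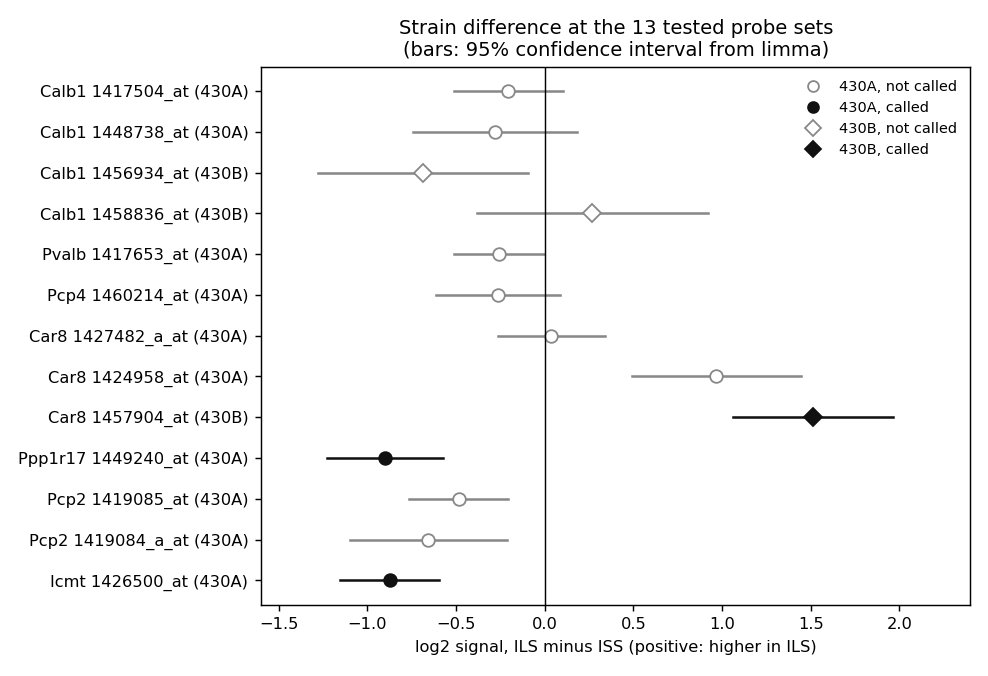
Log2 signal difference, ILS minus ISS, at the 13 tested member probe sets with the 95% confidence interval from limma; circles are 430A, diamonds 430B, and filled symbols were called. Ppp1r17 at -0.90 and Icmt at -0.87 were called lower, Car8 1457904_at at 1.51 was called higher, and the interval of the brightest Car8 probe set includes 0.

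ISS mouse 56 stood apart from the other mice at the members on 430A. It was the highest of the 4 mice at 8 of the 10 tested member probe sets there, against 29.8% of all probe sets tested. The median log2 ratio of ISS mouse 56 over ISS mouse 55 was 0.35 at the members and -0.0014 over all. The median strain difference of the 10 was -0.49 without ISS mouse 55 and -0.12 without ISS mouse 56. ISS mouse 56 was highest at Icmt and Ppp1r17 too, but there ISS mouse 55 also stood well above both ILS mice. ISS mouse 55 lay above both ILS mice at the bright Pcp2 probe sets as well and, narrowly, at Pvalb. The log2 ratio of ISS mouse 56 over 55 was 0.18 at Icmt and 0.22 at Ppp1r17. At the bright Pcp2 probe sets it was 0.33 and 0.60.

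Averaged over the brightest probe set of each of the 7 genes, the centred log2 signal was -0.14 and -0.28 in ILS mice 48 and 51 and 0.06 and 0.36 in ISS mice 55 and 56. The tested genes of 430A nearest this pattern over the 4 arrays were Cdk2ap1, Trip12, Arfrp1, Mapk14 and Stk17b. Their root mean square differences from it were 0.0190, 0.0243, 0.0250, 0.0251 and 0.0253 log2 units. Pcp2 was the member nearest to the mean, at 0.0345, and Ppp1r17 the farthest, at 0.244. With 4 arrays such closeness is a description.

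**Figure D3:**
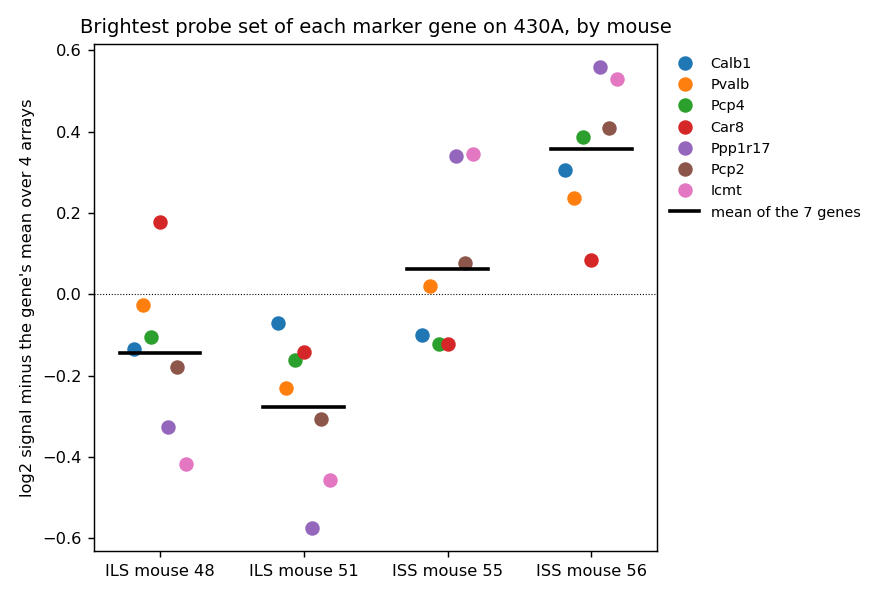
Log2 signal of the brightest 430A probe set of each of the 7 marker genes, centred on the gene's mean over the 4 arrays, by mouse; black bars give the mean of the genes. The bars stand at -0.14 and -0.28 for the ILS mice and at 0.06 and 0.36 for ISS mice 55 and 56, with Icmt and Ppp1r17 high in both ISS mice.

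A list of 45 other genes of Purkinje cells was read in the same way, at the brightest tested probe set of each gene. On 430A 25 were tested and none was called by limma, while 11 had an unadjusted p under 0.05, as did 2467 of all 11313 probe sets tested. The difference was below 0 for 19 of the 25, with a median of -0.32, and for 5846 of all those tested. ILS lay below ISS without overlap for 14 and above it for 1, where the shares over all were 28.7% and 25.6%. The smallest p belonged to the transcription factor Ebf1 (-0.90 ± 0.20, SE, limma adjusted p = 0.0559), the membrane skeleton protein Ank1 (-0.46, 0.0606), Rora, and the plasma membrane calcium pump Atp2b2 (-0.37, 0.118). With single mice left out, Ebf1 ranged from -1.16 without ILS mouse 48 to -0.64 without ILS mouse 51. Its brighter probe set on 430B had 1443 and 1182 in ILS against 1478 in both ISS mice. The log2 difference there was -0.18 (limma adjusted p = 0.829). The list's median was -0.48 without ISS mouse 55 and -0.21 without ISS mouse 56, and the calls changed with the mouse left out. With equal array medians, 11 of the list were called lower. That scaling moved the median of all probe sets from -0.01 to -0.17 and called 10.4% of them. It shifts every log2 difference equally, so the list's median relative to all probe sets could not leave -0.31. That relative median was -0.47 without ISS mouse 55 and -0.20 without ISS mouse 56.

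On 430B none of the 16 tested genes of this list was called by limma, 8 were below 0, the median was -0.0055, and 1 had an unadjusted p under 0.05, as did 1015 of all 11256. With the station as a block, or without ILS mouse 48, 11 of the 16 were below 0 and the median was -0.13. Without ISS mouse 56, 5 were below 0 and it was 0.06. The gene with that p was Ank1, at 331 and 424 in ILS and 600 and 567 in ISS, a log2 difference of -0.64 (limma adjusted p = 0.43) in the direction seen on 430A. Next came Atp2a2, the calcium pump of the endoplasmic reticulum, at 0.57 (adjusted p = 0.665), with a brighter probe set on 430A at -0.18 (adjusted p = 0.275).

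In the inositol trisphosphate pathway, the scaffold Homer3, which binds the trisphosphate receptor, had 1125 and 1048 in ILS and 1327 and 1802 in ISS. Inpp5a, the phosphatase that ends the signal, had 2185 and 2018 in ILS and 2462 and 2806 in ISS. Neither overlapped between strains or passed, with log2 differences of -0.51 and -0.32 (limma adjusted p = 0.128 and 0.174). Plcb4, the phospholipase that makes the messenger, stood at -0.41 (adjusted p = 0.149) on 430A. Its far brighter probe set on 430B stood at 0.12 (adjusted p = 0.864), with 10550 and 9753 in ILS and 9438 and 9280 in ISS. With equal array medians Homer3, Inpp5a and Plcb4 were called lower on 430A, and Homer3 also without ISS mouse 55, at -0.73. Gnaq, the G protein alpha subunit upstream of the phospholipase, had 5 tested probe sets on 430B, from -0.18 to 0.01, and none was called. The brightest, at -0.03, and 3 others overlapped between strains, while the second brightest had 3263 and 3069 in ILS and 3555 and 3602 in ISS and did not overlap. Prkg1, the kinase of Ppp1r17, stood at 0.07 on 430B and overlapped.

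Markers of other cell types moved with strain too, and their part in the member differences was not tested. On 430A 14 of the 15 listed microglia markers were present and 9 were tested. Of these 4 were called higher in ILS, where 1.61% of all tested probe sets were. C1qb (1.05), Laptm5 (0.88) and C1qc (1.00) were the smallest by p, and the median of the 9 was 0.49. On 430B the only tested marker, a probe set of Laptm5, stood at -0.0019 and overlapped between strains. Csf1r (0.13) and P2ry12 (0.08) overlapped on 430A. The calls came to 1 without ILS mouse 48, without ILS mouse 51, without ISS mouse 56 or with dim probe sets kept, and to 2 with both chips adjusted together. Their summed signal was 7037 and 7229 in ILS and 5431 and 4633 in ISS, and no signal on the arrays was 0. The summed signal of the 7 Purkinje markers was 33254 and 30504 in ILS and 35498 and 44408 in ISS. Of 10 granule cell markers none was called on 430A, the median was -0.16 and the sums were 27550 and 23350 in ILS and 26801 and 31949 in ISS. With equal array medians 4 of the 10 were called lower, at a median of -0.32, where 10.4% of all tested probe sets were called. The median was -0.27 without ISS mouse 55 and -0.079 without ISS mouse 56. ISS mouse 56 was highest for 6 of the 10 granule cell markers and for 17 of the 25 other Purkinje cell genes. It was highest for none of the 9 microglia or 11 oligodendrocyte markers.

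The medians of the other lists on 430A were -0.22 for 6 markers of molecular layer interneurons and Golgi cells, -0.09 for 11 of Bergmann glia and astrocytes, 0.10 for 11 of oligodendrocytes, 0.13 for 10 of endothelium and pericytes and 0.05 for 6 of choroid plexus and meninges. The last 3 were below 0 with equal array medians, at -0.06, -0.02 and -0.10. The last was also below 0 with quantile normalization, at -0.02, and with a filter at the 75th percentile, at -0.16 over 2 genes. The myelin gene Cldn11 (0.78) and the meningeal Dcn (0.65) were the called members, both higher in ILS. Neither list held a call without ILS mouse 48, without ISS mouse 56, with dim probe sets kept, without the variance trend or with both chips adjusted together. The list of Dcn also held none with equal array medians, quantile or cyclic loess normalization, a filter at the 75th percentile, or ILS mouse 51 or ISS mouse 55 left out. With equal array medians 4 of the Bergmann glia and astrocyte markers were called lower, where 10.4% of all tested probe sets were called. With quantile or cyclic loess normalization 1 of that list was called higher and none lower, where 2.43% and 2.48% of all were called. The 3 tested markers of brainstem and other outside neurons had a median of 0.34, which was 0.15 without ILS mouse 51 and -0.0019 without ISS mouse 56, with 2 of the 3 then below 0. The only tested blood marker, Alas2, stood at -0.33, and at -0.095 without ILS mouse 48. On 430B the vesicular glutamate transporter Slc17a7, a granule cell marker, was called lower in ILS (-1.14), as was Gfap of astrocytes (-2.37). Neither was called with the station as a block, with dim probe sets kept or without the variance trend. The Slc17a7 call also ended with equal array medians and without ILS mouse 48, ILS mouse 51 or ISS mouse 56.

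**Figure D4:**
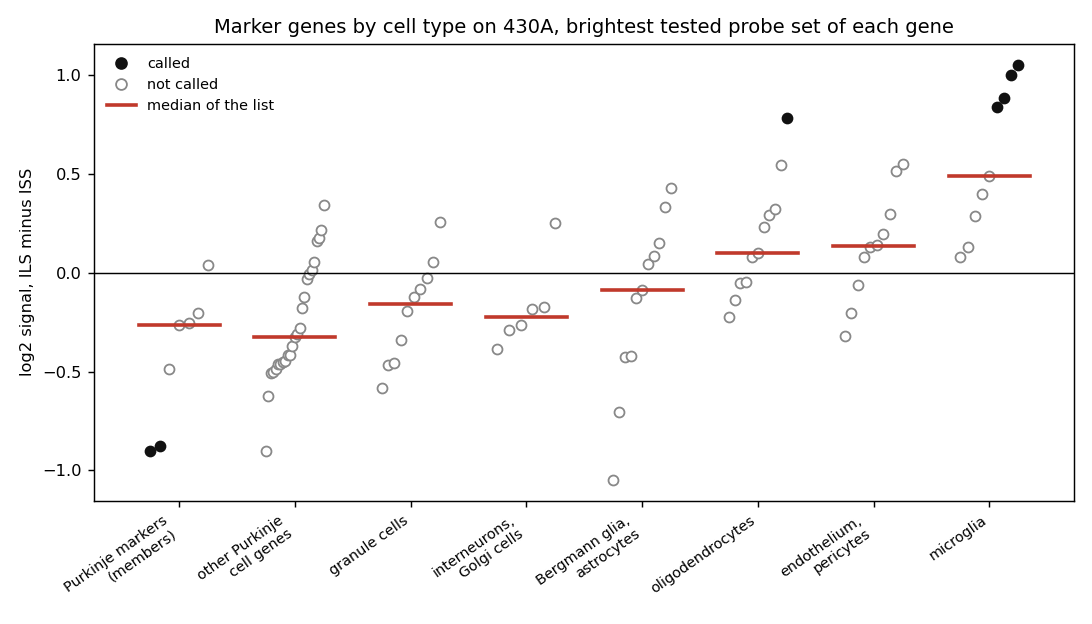
Log2 signal difference, ILS minus ISS, of marker genes by cell type on 430A, with 1 point for the brightest tested probe set of each gene, filled where called, and a red bar at the list's median. The Purkinje lists lie mostly below 0, with medians of -0.26 and -0.32, and the microglia markers lie above it, with a median of 0.49.

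Handling and array order moved with strain. On 430A both ILS arrays ran on fluidics station 2 and were scanned before both ISS arrays, which ran on station 1. On 430B both ISS arrays were scanned before both ILS arrays. Strain cannot be told apart from scan order on either chip or from station on 430A. The control probe set for 18S ribosomal RNA stood at 538 and 801 in ILS against 147 and 142 in ISS on 430A. The ratio of the 3' to the 5' control of Gapdh was 0.743 and 0.855 in ILS and 0.783 in both ISS mice on 430A, and did not separate the strains. The part of these in the member differences was not tested.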

How the data were processed

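Per the labels, biotin-labelled cerebellar RNA of 2 ILS and 2 ISS males was hybridised to 430A and 430B arrays. The deposited value tables hold signal intensity on a linear scale, made by the authors with MAS5 per the submitters' processing notes (no version given). The deposited arrays shared a 2% trimmed mean of 500, so the authors had set a common scale. The scanner files, of unit other, give chip type, station and scan order per the file headers.

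That scale was set exactly, log2 was taken, and 64 control probe sets were left out. Probe sets with a mean log2 value at or above the chip's median were tested, ILS minus ISS, separately per chip, with limma 3.58.1 and R 4.3.3 (eBayes with an intensity trend, two-sided, Benjamini-Hochberg over the chip, 2 residual degrees of freedom). Replicates are separate mice. The p-values set the strain difference against the spread between mice, which eBayes drew toward that of probe sets of similar intensity. That prior had more weight than the 2 residual degrees of freedom, at 6.22 for chip 430A and 7.31 for chip 430B. Genes came from the platform annotation. The members, lists and alternatives were chosen with earlier results of these data known. Every member probe set was named. Of the other Purkinje genes those with the smallest p were named, 4 on 430A and 2 on 430B, with the inositol trisphosphate pathway genes, and in each other list up to 3 called genes. The genes nearest the members' pattern were the 5 with the smallest root mean square difference. The steps were tested on simulated data. Alternatives were other scalings, a floor or pseudocount, other filters, other variance models, leaving out each mouse, the station block on 430B and joint adjustment.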

Additional observations from a re-analysis of the deposited data

How the results depend on the processing

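Of the 2 calls on 430A and the 1 call on 430B, the count on 430A was 6 with equal array medians, which called Icmt, Ppp1r17, Pvalb and both bright Pcp2 probe sets lower and Car8 1424958_at higher. That scaling moved the median of all tested probe sets to -0.17 and called 10.4% of them, and the median of the 10 members to -0.43. Because it shifts every log2 difference equally, the median of the 7 marker genes relative to all probe sets could not leave -0.25. Under the other alternatives that relative median ranged from -0.51 without ISS mouse 55 to -0.14 without ISS mouse 56. Leaving out single mice gave 2 to 5 calls on 430A. ILS mouse 51 left out gave 3, and ISS mouse 55 left out gave 5. The count on 430A was 3 with a pseudocount or with robust eBayes. The count on 430B was 0 with no filter on dim probe sets, 0 without the intensity trend and 0 with the station block, and 0 to 1 with single mice left out, 0 without ILS mouse 48. The adjusted p of Car8 1457904_at was 0.109 with no filter, over more probe sets tested, and 0.129 without the trend, where the cause of the loss was not tested. Directions turned at 3 probe sets with differences near 0. Car8 1427482_a_at stood at -0.12 with equal medians, -0.12 without ILS mouse 48 and -0.066 without ISS mouse 55, and ranged up to 0.20 with single mice left out. The brightest probe set of Gnaq stood at 0.0067 with quantile normalization, 0.14 without ILS mouse 51 and 0.01 without ISS mouse 56, and ranged down to -0.20. Prkg1 stood at -0.00032 without ILS mouse 48 and with the station block and at -0.069 without ISS mouse 55, and ranged up to 0.22. The cause of these turns was not tested. In the other 369 of 378 refits of a named probe set the direction held. Where a mouse was left out, the spread of its strain rests on that of the other strain. On both chips the share of all tested probe sets called rose without ISS mouse 55. It fell with any other mouse left out. The added calls of Pcp2 and Pcp4 without ISS mouse 55 came with that rise over all probe sets. Counts of called members in these refits are therefore not directly comparable with the main fit. No paired analysis was possible because the strains share no mouse numbers.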
